A study of Mus musculus with 6 samples.

Results

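The HoxB cluster is 1 of the 4 mouse Hox clusters and holds 10 genes, Hoxb1 to Hoxb9 and Hoxb13, on chromosome 11. Its members were taken as every probe that the platform annotation assigns to one of these genes. The array holds 45281 probes, and the annotation used here covers only probes of the authors' processed table, which were detected at a p-value under 0.01 on at least 1 array. It names 11 probes, for 8 of the 10 genes. All 11 passed the filter on dim probes, beside 18242 probes and 9908 named genes in all. Hoxb8 and Hoxb13 had no named probe and were not analysed here, and a HoxB probe detected on no array at that level could not have been named, so the counts of 8 genes and 11 probes hold for detected probes only.

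The arrays hold RNA of a mouse cell line labelled as anterior limb mesenchyme and of a line labelled as posterior limb mesenchyme, with 3 samples each, both from E10.5 embryos. Both lines express SV40 T antigen, a viral oncoprotein used to immortalize cells, in a version that is temperature sensitive, so the anterior samples carry it too. No treatment, age or genotype beyond this is given. With 1 line per side, the side of the limb and the line cannot be told apart. Whether the 3 samples of each line were grown separately is not stated. The p-values therefore set the group difference against the variation among these samples within each line, and that variation may be technical.

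The markers go against the labelled cell type in part. Of 14 limb mesenchyme markers 7 were tested, Prrx1, Tbx5 and Hand2 not among them. Of the 7, 5 were higher in posterior, against 25.9% of all tested genes. Alx4 and Pdgfra were detected on no anterior array and entered the test through the posterior arrays alone. Another 3 were detected on all anterior arrays, among them Twist1 and Msx1. On the normalized log2 scale Twist1 had mean levels of 5.99 in anterior and 7.54 in posterior, and Msx1 of 5.07 and 7.17. The summed normalized intensity of the 7, above the offset of 16, was 98 to 135 in anterior and 335 to 617 in posterior. All 12 pluripotent stem cell markers were detected on all anterior arrays and 10 of them on all posterior arrays. Of the 12, 11 were lower in posterior, against 21.5% of all tested genes. The summed intensity of the 12 markers was 48589 to 50563 in anterior and 15955 to 21318 in posterior. Mean levels in anterior and posterior were 14.36 and 13.60 for Dppa5a, 12.76 and 8.33 for Esrrb and 12.28 and 11.17 for Dppa4. The groups are therefore called anterior and posterior after their labels only.

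Hox genes encode homeodomain transcription factors that give cells their position along the head-to-tail axis. In vertebrate embryos the genes at the Hoxb1 end of the cluster start first and are used furthest towards the head, and those at the Hoxb13 end start later and are used nearer the tail. Retinoic acid switches on the Hoxb1 end early, CDX factors act on the middle genes, and Polycomb proteins keep the cluster silent in stem cells. PBX, MEIS and PKNOX proteins bind DNA together with Hox proteins.

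The annotated start regions of 2 measured members are shown because their letters can be set beside the retinoic acid, Hox and TALE genes described further on. Each is the 250 bases before the transcript start in the RefSeq promoter table, plus strand, on GRCm38.p6, at chr11:96365508-96365757 for Hoxb1 and chr11:96318017-96318266 for Hoxb4. The transcript start used for Hoxb1 lies a few bases downstream of the outermost annotated start of the gene, and distances are counted from the transcript start. Capitals mark a match to 1 of 4 motifs searched on both strands.
Hoxb1: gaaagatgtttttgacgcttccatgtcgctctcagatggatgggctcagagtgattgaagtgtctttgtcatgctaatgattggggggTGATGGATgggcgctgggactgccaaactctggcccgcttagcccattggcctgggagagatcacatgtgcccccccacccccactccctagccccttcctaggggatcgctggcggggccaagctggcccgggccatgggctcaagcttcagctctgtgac
Hoxb4: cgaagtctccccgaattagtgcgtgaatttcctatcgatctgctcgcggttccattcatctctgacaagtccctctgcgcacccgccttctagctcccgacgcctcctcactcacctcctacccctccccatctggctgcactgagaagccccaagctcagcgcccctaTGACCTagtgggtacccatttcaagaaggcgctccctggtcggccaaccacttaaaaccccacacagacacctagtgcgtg

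The Hoxb1 window held 1 match to the PBX-HOX motif TGATNNAT, from 162 to 155 bases before the start, and 7.68% of 32851 windows of this length held at least 1. In the mouse, Hoxb1 is known to act on its own gene through PBX-HOX sites upstream of it. The Hoxb4 window held 1 match to the retinoic acid receptor half-site AGGTCA, on the minus strand, from 81 to 76 bases before the start, against 14% of windows. Neither window held the CDX motif TTTATNG or the MEIS motif TGACAG, which 9.81% and 15.9% of windows held. The motifs matched did not overlap. A match describes letters only.

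All 8 measured HoxB genes were higher in the posterior samples, and 7 of them were detected on no anterior array. Detection means a detection p-value under 0.05 on an array, and a gene was tested where at least 3 of 6 arrays detected it. Among all tested genes 25.9% were higher and 21.5% lower past the threshold, an adjusted p of 0.05 in the limma fit over all probes. Counted by probe, all 11 HoxB probes were higher, against 21.2% of all tested probes (42.6% in either direction). Among the 534 tested genes that no anterior array detected, the share was 88.6%, because such genes entered the test only through the posterior arrays and had to come out higher. The count of HoxB genes is therefore no support for a direction. In bulk RNA, fewer cells that express a gene and less RNA per cell cannot be told apart.

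Levels below are normalized log2 intensities per array, in the order of replicates 1, 2 and 3, and differences are posterior minus anterior with their standard error (SE). Where no anterior array detected a gene, the size is given as a lower bound of the fold under the normalization used here. The bound is taken against the lowest detected signal of each anterior array, or the probe's own value if higher. Each gene is given by its brighter probe unless another is named.

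Hoxb1 encodes the factor of the first paralogue group, known from the fourth hindbrain segment. It lay at 4.26, 4.29 and 4.26 on the anterior arrays and at 9.79, 9.19 and 9.52 on the posterior arrays. The scanner intensities behind these values were 55.5 to 58.8 in anterior and 1094, 621.3 and 722.3 in posterior. The groups were far apart and did not overlap, with a fold of at least 25.4 (limma adjusted p = 4.97e-07). The second probe of Hoxb1 lay at 4.41, 4.53 and 4.35 in anterior and at 9.67, 9.0 and 9.32 in posterior, at least 22.6-fold higher. On both probes replicate 1 was the highest posterior array and replicate 2 the lowest.

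Hoxb2, which is used in the hindbrain and in the neural crest that leaves it, lay at 4.72, 4.72 and 4.36 in anterior and at 10.71, 10.63 and 11.18 in posterior. The groups did not overlap. Its fold was at least 64.5 (limma adjusted p = 4.21e-07).

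Hoxb3, also a hindbrain gene, lay at 4.35, 4.37 and 4.35 in anterior and at 5.20, 5.54 and 6.26 in posterior. Its posterior arrays were spread more widely than those of any other HoxB probe (SD 0.54, n = 3), and still lay above all anterior arrays. The fold was at least 1.78 (limma adjusted p = 0.00297). The second probe lay at 4.58, 4.26 and 4.44 in anterior and at 5.08, 5.06 and 5.22 in posterior, near the detection limit, and rose at least 1.22-fold (limma adjusted p = 0.00446). In the annotation the Hoxb3 gene spans Hoxb4, and probe positions were not used here.

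Hoxb4, a gene of the hindbrain and spinal cord that is also known for expanding blood stem cells, lay at 4.32, 4.28 and 4.31 in anterior and at 8.01, 8.0 and 8.79 in posterior. Replicate 3 stood above the other posterior arrays. The fold was at least 10.8 (limma adjusted p = 4.67e-06), and the groups did not overlap.

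Hoxb5, known in the mouse from the neck and shoulder region and from gut neurons, lay at 4.50, 4.68 and 4.33 in anterior and at 10.57, 10.68 and 10.88 in posterior. The groups did not overlap, and the fold was at least 58.9 (limma adjusted p = 1.56e-07). The anterior arrays lay at scanner intensities of 59.0 to 69.3, where detection p-values were 0.078 to 0.59.

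Hoxb6, a trunk gene that is also used in lateral plate mesoderm, had the smallest spread between posterior arrays. It lay at 4.44, 4.41 and 4.41 in anterior and at 8.11, 8.07 and 8.11 in posterior (SD 0.03, n = 3). The groups did not overlap and the fold was at least 9.60 (limma adjusted p = 5.37e-07).

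Hoxb7, a trunk gene also known from the ureteric bud of the kidney, was the only member with a detected anterior array. Its brighter probe lay at 4.30, 4.60 and 4.89 in anterior, where replicate 3 alone was detected (detection p-value 0.0278), and at 8.53, 8.49 and 8.78 in posterior. It rose 16-fold in the fit, a log2 difference of 4.0 (SE 0.18, limma adjusted p = 1.88e-06). As replicate 3 alone was detected in anterior, this size is also taken largely against background. In the authors' processed table the log2 difference was 2.65. The second probe was detected on no anterior array, at 4.31, 4.52 and 4.39, against 7.70, 7.37 and 7.97 in posterior, and rose at least 7.20-fold.

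Hoxb9, which in the mouse helps to set rib identity, is the last measured member on the Hoxb13 side. It lay at 4.58, 4.44 and 4.46 in anterior and at 5.82, 6.04 and 6.47 in posterior. The groups did not overlap. The fold was at least 2.43 (limma adjusted p = 0.00018).

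**Figure D1:**
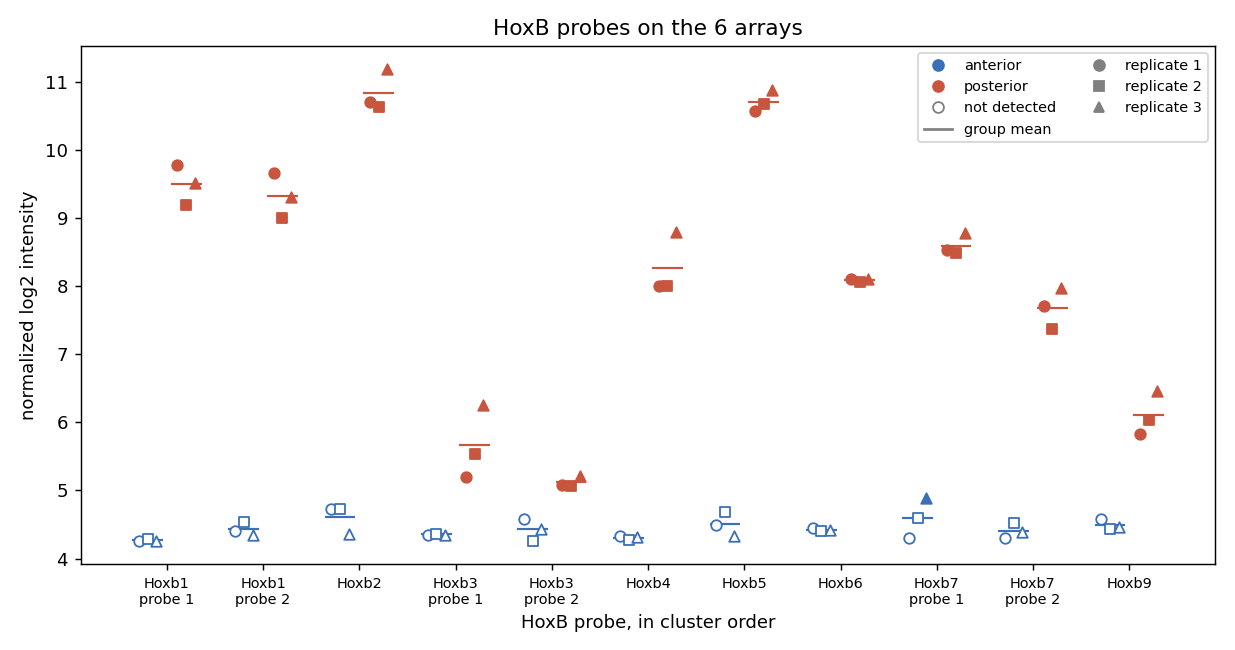
Normalized log2 intensity (y axis) of each HoxB probe (x axis, in cluster order) on the 3 anterior and 3 posterior arrays, with open symbols for arrays that did not detect the probe and a line at each group mean. Every posterior array lies above every anterior array at all 11 probes, and 1 anterior value, at the first Hoxb7 probe, is detected.

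All 11 probes were detected on all 3 posterior arrays, and at all 11 each posterior array lay above each anterior array, as it did at 26.1% of all tested probes. At all 8 genes each posterior array lay above each anterior array, as it did at 31.4% of all tested genes and at 97.4% of those detected on no anterior array. In cluster order the folds were at least 25.4 for Hoxb1, at least 64.5 for Hoxb2, at least 1.78 for Hoxb3, at least 10.8 for Hoxb4, at least 58.9 for Hoxb5, at least 9.60 for Hoxb6, 16 in the fit for Hoxb7 and at least 2.43 for Hoxb9. Brightness differs between probes for reasons other than RNA amount, so the genes are not ranked, and no relation of level or fold to position was read or tested.

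Sizes depended on the treatment of dim signals at all 8 genes. The fitted log2 difference, which for 7 of them is taken against an anterior level not above background and is no measured size, was 5.22 for Hoxb1, 6.24 for Hoxb2, 1.31 for Hoxb3 and 1.62 for Hoxb9. In the authors' deposited table of log2 values, which have no background correction, it was 3.70 for Hoxb1, 4.75 for Hoxb2, 0.62 for Hoxb3 and 0.76 for Hoxb9. All 8 genes still passed under those values in the limma fit. The lower bounds of the fold also depend on the processing. In log2 they were 4.66 for Hoxb1, 6.01 for Hoxb2, 0.83 for Hoxb3 and 1.28 for Hoxb9, each above the difference in the authors' values. They are therefore bounds under the normalization used here only.

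**Figure D2:**
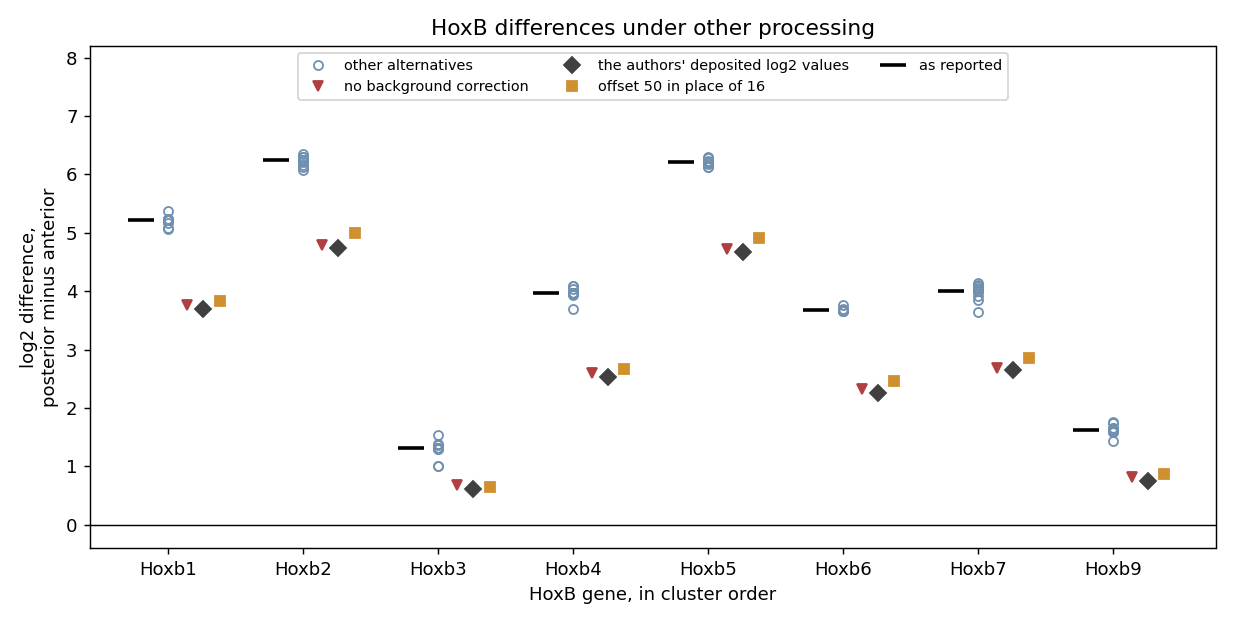
Fitted log2 difference, posterior minus anterior (y axis), of each HoxB gene (x axis, in cluster order), as reported (black bar) and under the alternatives (symbols). Dropping the background correction, a larger offset and the authors' values gave smaller differences, from 0.62 for Hoxb3 to 5.0 for Hoxb2, and all stayed above 0.

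The posterior samples differed among themselves at several members. Replicate 3 was the highest posterior array at 8 of 11 probes and replicate 1 at 3, namely both Hoxb1 probes and Hoxb6, where replicates 1 and 3 were equal to 2 decimals. Over all tested probes replicate 3 was highest at 37.1% and replicate 1 at 31.0%. With the arrays scaled to a common median, replicate 1 was highest at 6 and replicate 3 at 5 of the 11 probes, and at 70.0% and 14.9% of all tested probes. Both Hoxb1 probes had replicate 1 highest under each of the 4 scalings compared. With 3 samples and no order among them, these values are a description.

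**Figure D3:**
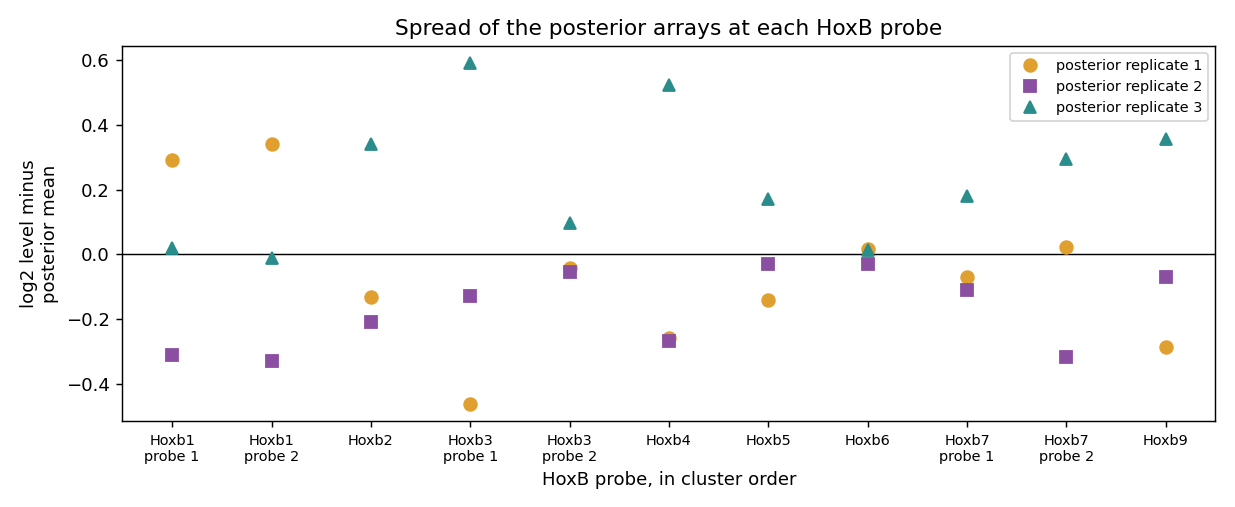
Level on each posterior array minus the posterior mean, in log2 (y axis), at each HoxB probe (x axis, in cluster order). Replicate 1 is highest at both Hoxb1 probes, whereas replicate 3 is highest at Hoxb2, Hoxb3, Hoxb4, Hoxb5, Hoxb7 and Hoxb9.

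Genes that flank the cluster were set beside it, the 12 nearest protein-coding genes on each side in the RefSeq table. Of the 24, 15 were tested, with 4 higher, 2 lower and 9 not past the threshold, and their median log2 difference was -0.03, against 0.03 over all genes. Of all tested genes 47.4% passed in either direction. The tally was 3 higher and 5 lower with the authors' deposited values, 4 and 4 with no background correction or with an offset of 50, and 1 and 3 with no detection filter, so its direction depends on these settings. Among the neighbours, B4galnt2, a glycosyltransferase gene detected on no anterior array, was at least 1.46-fold higher. On the Hoxb13 side Abi3 was at least 2.97-fold lower, and Gngt2 fell by a factor of at least 2.92. No posterior array detected either.

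Skap1, an adaptor protein gene and the nearest neighbour of Hoxb1, was detected on 1 of 3 anterior arrays and all posterior arrays, with means of 4.76 and 5.42 (log2 difference 0.66, SE 0.18, limma adjusted p = 0.019). It did not pass when anterior replicate 1 (adjusted p = 0.0677) was left out, nor without posterior replicates 1 (0.0565) or 3 (0.0674), and it also did not pass with the authors' deposited values (0.0766), with no detection filter (0.0564) or with the mean of its probes (0.138). Sp6, a transcription factor gene, had a log2 difference of 0.66 (SE 0.19) and did not pass when anterior replicate 3 (0.0536) was left out, nor without posterior replicates 2 (0.0948) or 3 (0.0508), nor with no detection filter (0.0751). Scrn2 had a log2 difference of 0.50 (SE 0.16) and did not pass without anterior replicate 2 (0.0885) or 3 (0.084), or without posterior replicate 1 (0.0668), 2 (0.115) or 3 (0.0673). It also did not pass with no detection filter (0.0604) or with array weights (0.0572). Without posterior replicate 3 the count of neighbours past the threshold was 3. Snx11, a sorting nexin gene next to Skap1, had means of 9.32 in both groups.

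**Figure D4:**
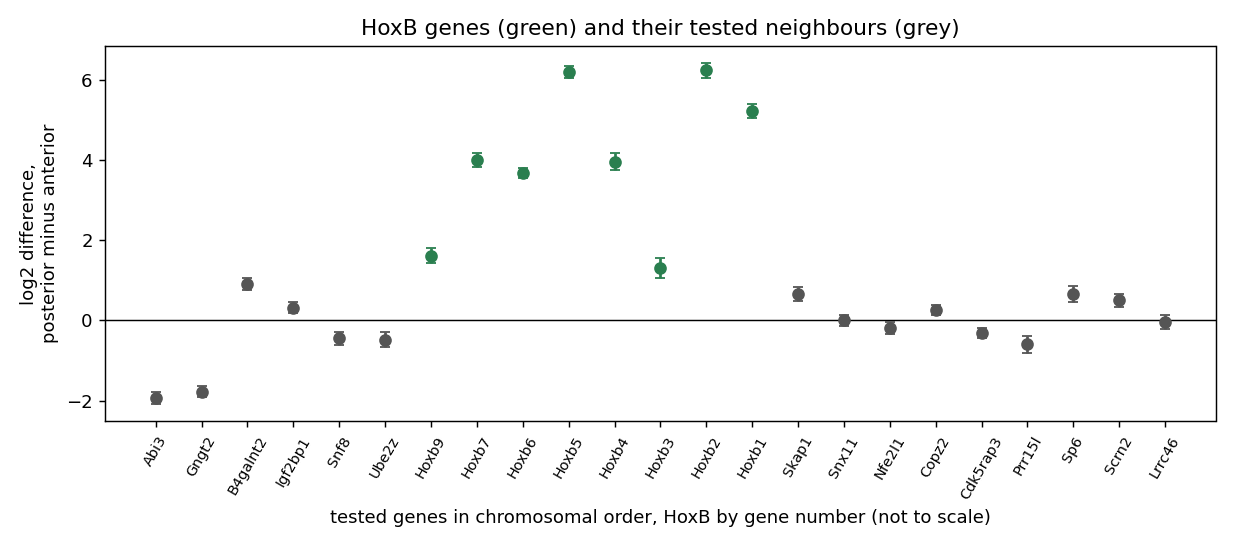
Fitted log2 difference, posterior minus anterior, with its standard error (y axis) for the 8 tested HoxB genes and 15 tested neighbours (x axis, in chromosomal order, not to scale). The fitted values lie between 1.31 and 6.24 for HoxB genes, 7 of them against an anterior level not above background, and between -1.94 and 0.91 for the neighbours.

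In the other clusters 10 of 13 tested Hox genes were higher and 3 did not pass, against 25.9% of all tested genes higher. Of these 13 genes, 9 were detected on no anterior array and entered the test through posterior alone. All 9 of them were higher, as were 88.6% of all tested genes that no anterior array detected. Hoxa7, which 1 anterior array detected, was also higher. The higher genes include Hoxa5 (at least 46.2-fold) and Hoxc9 (at least 20.6-fold). The other 3, Hoxc10, Hoxd11 and Hoxa13, were detected on 1, 1 and 3 anterior arrays. Their log2 differences were 0.41 (SE 0.20), -0.00 (SE 0.14) and -0.10 (SE 0.14). No other gene of their paralogue groups had a tested probe, so no relation to paralogue group was read. Hoxc10 passed without anterior replicate 3 (limma adjusted p = 0.0183). No named probe was tested for the non-coding and antisense genes of the HoxB cluster.

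Partners of Hox proteins were mostly higher, with 6 of 8 tested TALE genes past the threshold upward, none downward and 2 not past it, against 25.9% of all tested genes higher and 21.5% lower. These shares of all genes also stand beside the lists that follow. Meis2 and Meis1, which encode cofactors that bind DNA beside Hox and PBX proteins, had log2 differences of 5.44 (SE 0.25) and 5.31 (SE 0.28). With the mean of its probes the difference of Meis2 was 3.0. Pknox2, of the same family, was detected on no anterior array, entered the test through posterior alone and was at least 3.96-fold higher.

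Among axial regulators known to act on HoxB genes, 3 of 4 tested were higher, 1 did not pass and none was lower. Cdx1, a caudal-type factor of the posterior embryo, averaged 5.07 on the anterior arrays, 2 of which detected it, and 7.07 on the posterior arrays (log2 difference 1.99, SE 0.18). Cdx2 was detected on no anterior array, entered the test through posterior alone and was at least 1.77-fold higher. Wnt3a, a signal of the tail bud, had a log2 difference of 0.80 (SE 0.19).

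Retinoic acid genes had 6 of 10 tested members higher, 1 lower and 3 not past the threshold. Of the 10, 3 were detected on no anterior array and entered the test through posterior alone, Rarb among them. Cyp26a1, the gene of a retinoic acid hydroxylase that is itself switched on by retinoic acid, averaged 4.74 in anterior, with 1 array detecting it, and 11.99 in posterior. Crabp2, the cytoplasmic carrier, had a log2 difference of 5.71 (SE 0.18), and Rarb, which encodes a retinoic acid receptor, rose by a factor of at least 19.8. The lower member was Rarg, another receptor gene, with a log2 difference of -2.29 (SE 0.17). The values of Cyp26a1, Crabp2 and Rarb move with those of HoxB between the groups, and that of Rarg moves against them. The part of these genes in the HoxB difference was not tested.

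Chromatin regulators of Hox clusters were called in both directions. Of 12 tested Polycomb genes 5 were higher and 3 lower, beside 25.9% and 21.5% of all genes, with a median log2 difference of 0.09 against 0.03. Among the 5 higher, 1 was detected on no anterior array and entered the test through posterior alone. Phc2 rose by 2.67 (SE 0.15) while Phc1, its paralogue in the same complex, fell by 1.99 (SE 0.16), and Eed, a core subunit of the complex that methylates histone H3, fell by 1.78 (SE 0.18). Of 10 trithorax and demethylase genes 3 were higher and 3 lower, with a median of -0.18. Kdm6b, a demethylase that removes the Polycomb mark, rose by 1.54 (SE 0.17), and Ash2l fell by 1.06 (SE 0.17). Wdr5, another subunit of the trithorax complexes, had a log2 difference of -0.86 (SE 0.16), which did not pass with arrays scaled to a common median (limma adjusted p = 0.0731).

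The genes most like HoxB over the 6 arrays, by Pearson correlation with the mean of the 8 HoxB genes and with Hox genes left out, were Arg1, Rab32, Chst1, Tshz1 and Zcrb1, each at 0.999 or above. The 6 values share the arrays and form 2 clusters, and 244 of 4681 genes past the threshold correlated above 0.99, so this describes the split between the groups.

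Markers of other lineages also moved with the groups. Of 4 tested endoderm markers 3 were higher, each on no anterior array. The sums of the 4 were 606 to 899 in anterior and 833 to 1909 in posterior. In anterior Cdh1 had a mean level of 9.43 and the other 3 of 4.32 to 4.52, so Cdh1 dominated the anterior sum. Gata6 was at least 13.4-fold higher, Foxa1 rose by a factor of at least 13, and Cdh1 passed as lower only without posterior replicate 3 (limma adjusted p = 0.0279) among the alternatives run. Of 5 lateral and paraxial mesoderm markers 2 were higher and 2 lower, with sums of 1373 to 1544 and 350 to 504. Of these, Bmp4 and Tcf15 had log2 differences of -1.98 and -3.25, and Meox1, on no anterior array, was higher by a factor of at least 4.24. Both tested neural markers, Nes and Map2, were higher, with sums of 78 to 111 and 243 to 373. Map2 (log2 difference 0.70) did not pass when anterior replicate 2 (adjusted p = 0.0516) was left out, nor without posterior replicates 1 (0.0735) or 2 (0.0763). The 1 tested blood marker, Kit, lay at 566 to 586 and 642 to 1071. Whether these marker differences reflect cell types, and what they contribute to the HoxB values, was not tested.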

How the data were processed

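Total RNA was amplified into biotinylated cRNA and hybridised to 1-colour Illumina mouse bead arrays, 3 per group, per the labels' protocols. The deposited table holds linear intensities, neither background subtracted nor normalized, with a detection p-value beside each, as deposited and per the file headers. The authors' log2 values cover 18312 probes and equal quantile-normalized log2 intensities of the probes detected at 0.01 on at least 1 array. Of tools, limma is listed in the submitters' processing notes, with no version.

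Here the neqc function (limma 3.58.1, R 4.3.3, offset 16) normalized the intensities, and 18242 probes detected at 0.05 on at least 3 of 6 arrays were fitted with lmFit and eBayes, with Benjamini-Hochberg adjustment over all of them. The offset shrinks differences of dim probes. The arrays detected 16052 to 18657 probes each, and their number limits the precision. Arrays correlated at 0.971 to 0.989 within a group and at 0.882 to 0.905 between groups.

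Gene names come from the platform annotation of the authors' probes, 15550 with 1 symbol, so a gene missing there is not named here. A gene is given by its brightest tested probe. List genes were matched by gene ID through RefSeq. Named genes are all HoxB probes, called neighbours, up to 3 leading called genes of each list and any Hox gene of the other clusters. The 5 genes most like HoxB and the up to 3 brightest members of each marker list are also named. Snx11, Alx4 and Rarg were added after their values were seen. Members and lists were chosen with earlier results of these data known. The fit was tested on simulated data. Alternatives were 18 settings of background, scaling, filter, variance, block, probe choice and left-out samples; a slide or scan as a block was not run, as the sources used here give none. Python 3.11.15 and matplotlib 3.10.9 drew the figures.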

Additional observations from a re-analysis of the deposited data

How the results depend on the processing

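All 8 HoxB genes kept their direction and passed the threshold in every one of the 17 alternatives that could test them. Leaving out 1 sample gave 8 genes each time. Detected on no anterior array, 7 of the 8 entered the filtered settings through posterior alone, so this count is no support for a direction. In the main fit 88.6% of all tested genes on no anterior array were higher. With detection required on all 6 arrays no HoxB gene could be tested. The largest adjusted p of a HoxB gene over these settings was 0.0225, for Hoxb3 with no detection filter. For all tested probes past the threshold, leaving out a sample gave counts of 5991 to 7679, and for neighbours of the cluster 3 to 6. With detection on all 6 arrays 3 of 10 neighbours passed, with fewer genes tested. Skap1 had a log2 difference of -0.00229 with a detection p-value under 0.01, where another probe of the gene was tested. With arrays scaled to one median, the median difference of all probes went from -0.04 to 0.12, and 69.5% of the probes past the threshold were then higher, against 49.8%. Of the fitted HoxB differences that scaling moved Hoxb9 most, from 1.62 to 1.74. With the replicate block 7827 probes, 8 HoxB genes and 8 neighbours passed. The deviations of same-numbered samples correlated at 0.29, 0.16 and -0.08, and not every sample correlated best with its own number. With 3 samples per group these values cannot tell whether the replicate numbers mark a pairing. Of 853 values of 49 other named genes under the alternatives, 827 kept their call, and those past the threshold also their direction. Values not past it could change sign and still count as kept, such as Hoxa13, at -0.10 and, with the common median, 0.10. Signal near the background limits the sizes of all 8 HoxB genes, since 7 of them have only an upper bound in anterior.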
